A study of Mus musculus with 4 samples.

Results

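The 10 genes described here encode cytokines of the interleukin 1 (IL-1) family, their soluble inhibitors and the core of the inflammasome. They were taken by symbol from the 17013 genes with deposited values, and all 10 (Il1a, Il1b, Il1rn, Il18, Il18bp, Nlrp3, Pycard, Casp1, Casp4 and Gsdmd) were found and passed the filter on low values. Macrophages were grown from the bone marrow of wild-type male C57BL/6 mice with M-CSF, seeded on porous inserts, and cultured for 24 h. In both groups the upper side received aNBF (10 µg/mL), a fluid made from freeze-thawed bone and marrow to imitate necrotic bone. The lower side received medium made from freeze-thawed abdominal fat, either the middle layer (fat control medium, Con) or the top layer (high-fat-containing medium, Fat). Both groups thus received aNBF and material from necrotic fat, and no culture went without them. The comparison sets the top layer against the middle layer, so what either layer held cannot be told apart as the source of a difference. There were 2 libraries for each medium. Whether the libraries came from separate mice or cultures, and the age of the mice, are not given in the sources used here, so p-values measure only the spread between these libraries, which may be technical. As a model, the system is a culture of marrow cells grown as macrophages. Other marrow cells may have remained in it, and cells and RNA may have come with the fat and bone preparations.

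IL-1 beta and IL-18 are made as inactive precursors. A first signal, often through Toll-like receptors, induces transcription of the precursors and of the sensor NLRP3, and a second signal makes NLRP3 gather the adaptor ASC (Pycard) and caspase-1, which cuts both cytokines and opens gasdermin D into a membrane pore. Caspase-11 (Casp4 in mouse) senses bacterial lipopolysaccharide in the cytosol and cuts gasdermin D as well. The receptor antagonist (Il1rn) and the IL-18 binding protein (Il18bp) are inhibitors that block IL-1 and IL-18. RNA shows only the transcript level, so neither cutting nor release of the proteins was measured here.

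Reads were recovered from the CPM values (reads scaled by the size of the library), taking the smallest value above 0 as a single read. Over all genes with values they summed to between 33573852 and 40785872 a library. A single read was worth between 0.0244 and 0.0295 CPM. All 8 macrophage markers, Emr1 (the F4/80 antigen, also known as Adgre1), Cd68, Csf1r, Itgam, Fcgr1, Mertk, Lyz2 and Mrc1, were detected. Their summed level was 34068 to 36127 CPM in Con and 27024 to 28645 CPM in Fat, with Fcgr1 and Mertk called lower (Mertk not without Con replicate 1 or Fat replicate 2, limma adjusted p = 0.0846 and 0.145). Lyz2 gave the larger part of that sum and was not called (limma adjusted p = 0.209). The 2 called are 25.0% of the 8 markers, against 5.0% of all genes tested that were called lower. For 6 of the 8 both Fat libraries lay below both Con libraries, as they did for 26.2% of all genes tested. The groups overlapped for Cd68 (log2 fold change of Fat over Con 0.09) and Itgam (0.07).

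The antagonist gene Il1rn rose in Fat while Il1b, Il18bp, Casp4, Casp1, Nlrp3 and Pycard fell, and 7 of the 10 genes passed the test (1 higher, 6 lower). That number was 5 without Con replicate 1, without Fat replicate 2 or with TPM values, and 0 in a limma fit without the mean-variance trend (9 at an unadjusted p under 0.05, and 8 called with edgeR and 8 with DESeq2). Over all 12470 genes tested, 9.0% were called, 3.99% higher and 5.0% lower. At an unadjusted limma p under 0.05 there were 3008 of them, and 2639 without the trend. The median log2 fold change of the 10 genes was -0.47, and that of all genes tested was 0.01. Il1a and Gsdmd were below both Con libraries in both Fat libraries without passing the test, and the Il18 values overlapped. Both Fat libraries lay below both Con libraries for 8 of the 10 genes and above them for 1, so 9 of the 10 separated the groups. Among all genes tested, 26.2% lay below, 29.4% above, and 55.6% did one or the other. Changes are given as log2 fold changes of Fat over Con on log2(CPM + 0.1), with limma's standard error and its p-value adjusted over all genes tested, called under 0.05. In such bulk RNA, fewer cells of a type and less RNA per cell cannot be told apart.

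**Figure D1:**
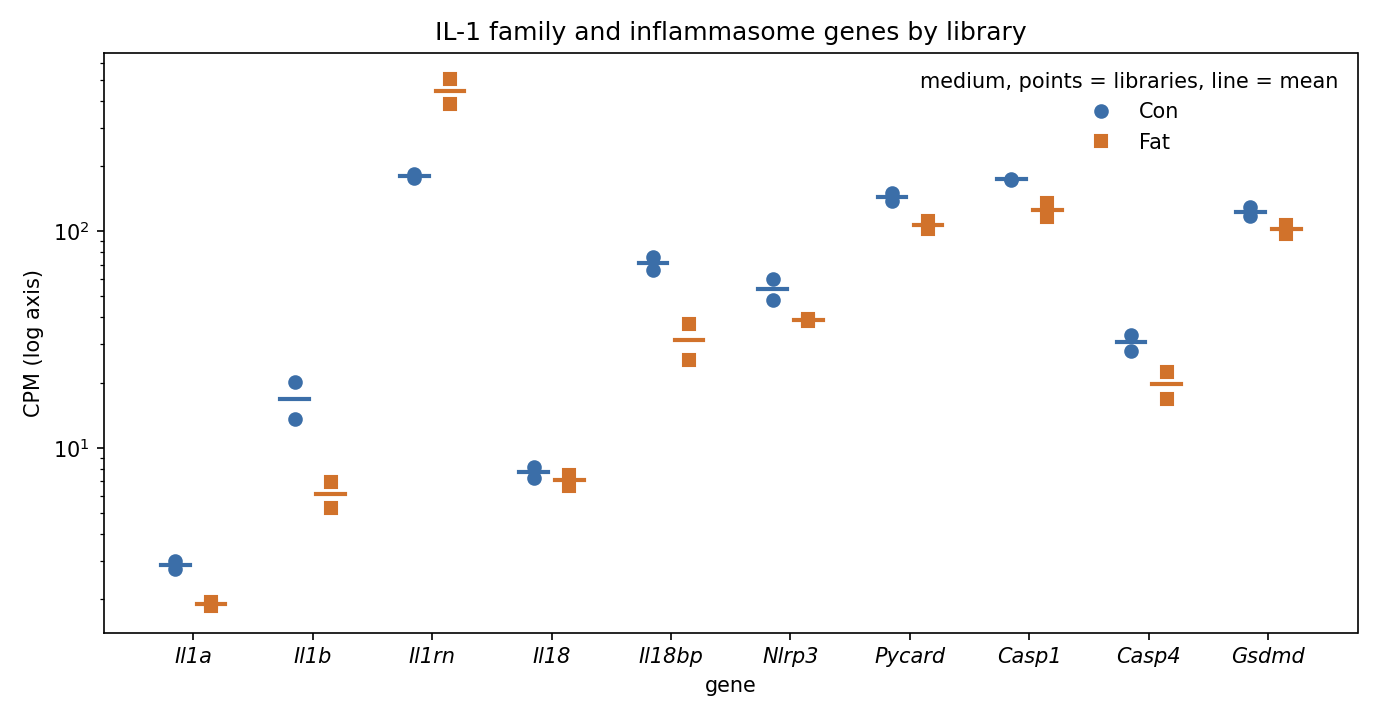
CPM (log axis) of the 10 genes in each of the 2 Con (circles) and 2 Fat (squares) libraries, with the mean as a line. The Fat points lie above the Con points for Il1rn, overlap with them for Il18 and lie below them for the other 8 genes.

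Il1b, the gene of the IL-1 beta precursor, reached 20.02 CPM in Con replicate 1 and 13.6 CPM in Con replicate 2, against 6.94 CPM in Fat replicate 1 and 5.29 CPM in Fat replicate 2. Every Fat value was thus below every Con value, and the 2 Con libraries lay farther apart than the 2 Fat libraries. The mean was 16.8 ± 4.52 CPM (SD, n = 2) in Con and 6.12 ± 1.16 CPM (SD, n = 2) in Fat. In the fit on log2 values Il1b was 2.70-fold lower (log2 fold change -1.43 with standard error 0.20, limma adjusted p = 0.0076). These levels rest on 679 and 511 reads in Con and on 259 and 217 reads in Fat. Il1a encodes IL-1 alpha, which is active without caspase-1 and acts on the same receptor. It was at 3.01 and 2.75 CPM in the Con libraries and at 1.93 and 1.85 CPM in the Fat libraries, counts of 102, 103, 72 and 76 reads. Il1a was thus the lowest of the 10 genes, and the change of -0.58 on the log2 scale (standard error 0.16, limma adjusted p = 0.0732) did not pass the test. In GENCODE, 11.3% of the Il1a exon bases also lie in a gene on the opposite strand (Gm14023), and whether reads were counted by strand is not given in the sources used here. For Il1b the opposite-strand share was 1.31% (Il1bos) and for Il18bp 2.64% (Numa1).

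Both cytokine genes have a TATA box close to their start. Shown here are the 250 bases before the RefSeq transcript start of each (GRCm38.p6, minus strand, chr2:129309973-129310222 for Il1a and chr2:129371140-129371389 for Il1b), because the levels of both were lower in Fat; capitals mark the letters TATAAA.
Il1a: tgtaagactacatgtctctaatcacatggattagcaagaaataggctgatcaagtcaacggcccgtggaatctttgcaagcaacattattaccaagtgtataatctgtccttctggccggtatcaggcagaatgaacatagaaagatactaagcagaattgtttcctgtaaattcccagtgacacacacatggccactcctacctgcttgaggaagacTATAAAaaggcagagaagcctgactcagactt
Il1b: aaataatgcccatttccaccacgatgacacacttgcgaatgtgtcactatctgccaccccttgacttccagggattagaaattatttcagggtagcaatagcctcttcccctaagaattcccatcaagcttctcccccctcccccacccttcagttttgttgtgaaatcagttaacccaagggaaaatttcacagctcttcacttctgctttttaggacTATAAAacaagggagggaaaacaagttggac
The match lies at -32 to -27 from the start of Il1a and at -31 to -26 from that of Il1b. Of all 32851 promoter windows of this length in the table, 12.4% hold these letters on either strand.

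Il1rn, the gene of the IL-1 receptor antagonist, was at 176 and 184 CPM in the Con libraries and at 502 and 388 CPM in the Fat libraries. Both Fat values exceeded both Con values, and Fat replicate 1 was the higher. The mean rose from 180.3 ± 5.78 CPM (SD, n = 2) in Con to 445 ± 80.7 CPM (SD, n = 2) in Fat. In the fit on log2 values Il1rn was 2.45-fold higher (log2 fold change 1.29 with standard error 0.11, limma adjusted p = 0.00286). Among the 10 genes it was the only one called higher. With each library left out in turn its log2 fold change lay between 1.10 and 1.48, and that of Il1b between -1.71 and -1.16, and both stayed called in these fits. Without the mean-variance trend neither was called (limma adjusted p = 0.0831 for Il1rn and 0.0932 for Il1b). RefSeq lists 3 starts for Il1rn. Values are per gene, so these starts were not told apart. The 250 bases before one of them (GRCm38.p6, plus strand, chr2:24345041-24345290) are shown because Il1rn was called higher. None of the motifs searched is in this window, so it has no capitals.
Il1rn: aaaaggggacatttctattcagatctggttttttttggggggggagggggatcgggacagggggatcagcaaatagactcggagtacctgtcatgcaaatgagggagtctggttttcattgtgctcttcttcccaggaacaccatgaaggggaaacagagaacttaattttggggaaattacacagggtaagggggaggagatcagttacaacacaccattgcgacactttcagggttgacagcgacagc

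**Figure D2:**
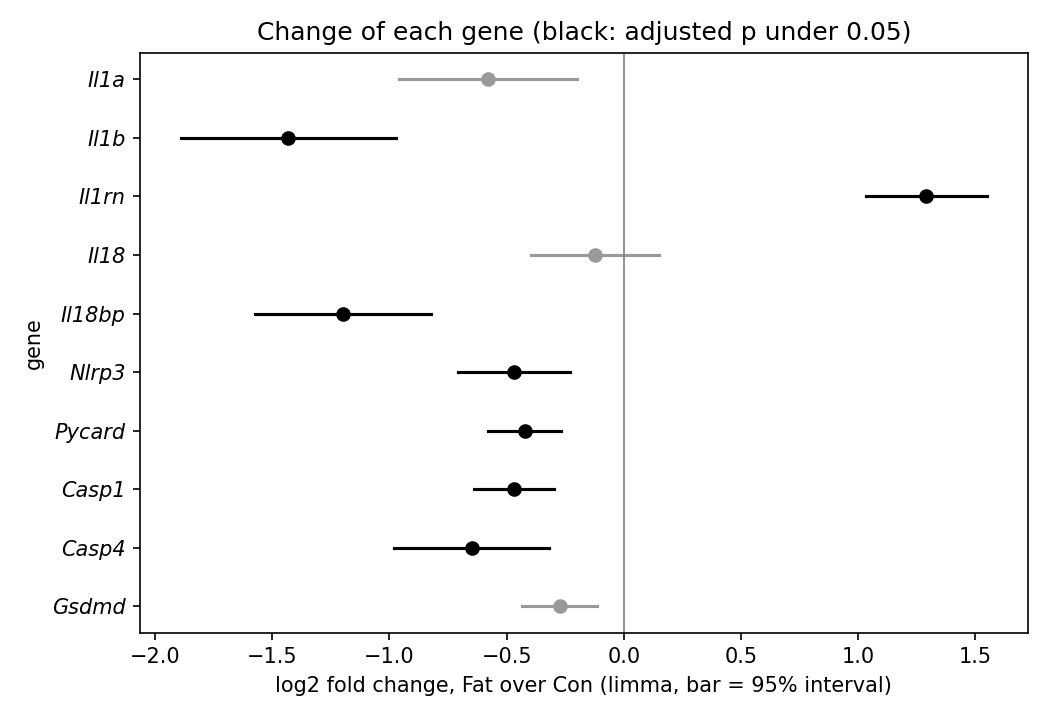
Log2 fold change of Fat over Con for each of the 10 genes (points) with the 95% interval of the limma fit (bars). Il1rn alone lies to the right of 0, at 1.29, and the interval of Il18 includes 0; black marks genes called at an adjusted p under 0.05.

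Within each library, the antagonist and the cytokine can be set side by side per gene length as TPM. Il1rn exceeded Il1b 4.34-fold and 6.68-fold in Con replicates 1 and 2, and 35.7-fold and 36.1-fold in Fat replicates 1 and 2. The Fat ratios were nearly the same in both libraries and far above both Con ratios. The log2 ratio of Il1b over Il1rn differed by -2.73 between Fat and Con (exact two-sided permutation p = 0.33, the smallest that 2 libraries against 2 can give). Il1rn exceeded Il1a 43.0-fold and 49.3-fold in Con and 191-fold and 154-fold in Fat, a difference of -1.87 in the log2 ratio of Il1a over Il1rn with the same exact permutation p = 0.33. Il1b exceeded Il1a 9.90-fold and 7.38-fold in Con and 5.35-fold and 4.25-fold in Fat, so the groups did not overlap in this ratio either (difference -0.85 on the log2 scale, exact permutation p = 0.33). Of the 6 ratios examined, these 3 and that of Il18 over Il18bp separated the groups, and an exact test of this size could call none of them. Adjusted over the 6 ratios, no p-value can fall below 0.33.

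Il18 and its inhibitor did not follow that pattern. Il18 was at 8.17 and 7.25 CPM in the Con libraries and at 7.45 and 6.68 CPM in the Fat libraries. The groups overlapped, since Fat replicate 1 lay above Con replicate 2. On the log2 scale the change was -0.12 (standard error 0.12, 95% interval from -0.40 to 0.15, limma adjusted p = 0.573). Il18bp, whose product binds IL-18 and is known to be induced by interferon gamma, was at 75.8 and 66.1 CPM in Con and at 37.2 and 25.5 CPM in Fat. Both Fat values were below both Con values, with Fat replicate 2 the lowest. The mean fell from 70.9 ± 6.86 to 31.4 ± 8.33 CPM (SD, n = 2 each). In the fit on log2 values Il18bp was 2.29-fold lower (log2 fold change -1.20 with standard error 0.16, limma adjusted p = 0.00726). Per length, Il18bp exceeded Il18 5.73-fold and 5.63-fold in Con and 3.09-fold and 2.35-fold in Fat. The log2 ratio of Il18 over Il18bp was thus higher by 1.07 in Fat (exact permutation p = 0.33). For IL-1 the ratio of inhibitor to cytokine transcripts was higher in Fat, and for IL-18 it was lower.

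**Figure D3:**
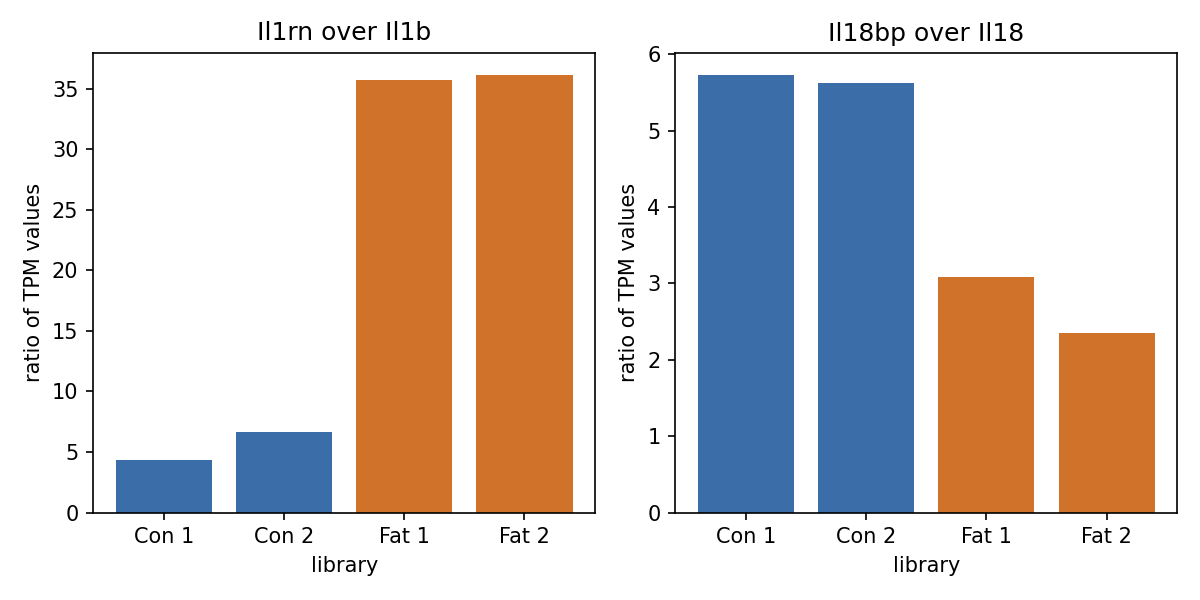
Ratio of TPM values in each library (bars from 0; blue Con, orange Fat) for Il1rn over Il1b and for Il18bp over Il18. The first ratio was 4.34 and 6.68 in Con and 35.7 and 36.1 in Fat, and the second was 5.73 and 5.63 in Con and 3.09 and 2.35 in Fat.

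The sensor and the adaptor of the inflammasome were both lower in Fat, by less than Il1b. Nlrp3 was at 60.0 and 47.95 CPM in the Con libraries and at 39.1 and 38.3 CPM in the Fat libraries. The 2 Fat values were close together and below both Con values. The log2 scale change of -0.47 (limma standard error 0.10, adjusted p = 0.0318) was not called without Con replicate 1 (log2 fold change -0.31, limma adjusted p = 0.063) or without Fat replicate 2 (-0.45, limma adjusted p = 0.0829). Pycard, the gene of the adaptor ASC, was at 138 and 149 CPM in Con and at 111 and 103 CPM in Fat. Both Fat libraries were again below both Con libraries (limma log2 fold change -0.42 with a standard error of 0.07, adjusted p = 0.0119), and Pycard stayed called with each library left out. In GENCODE, 12.8% of the Pycard exon bases also belong to Gm45205 on the opposite strand. Nlrp3 did not change against Pycard by more than the spread between libraries: the TPM ratio of Pycard over Nlrp3 was 4.32 and 5.86 in Con and 5.36 and 5.04 in Fat.

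Among the proteases, Casp1 encodes the caspase that cuts the IL-1 beta and IL-18 precursors. It was at 174 and 173 CPM in the Con libraries and at 134 and 117 CPM in the Fat libraries, both Fat values below both Con values. This was a change of -0.47 on the log2 scale (limma standard error 0.07, adjusted p = 0.0119), and Casp1 stayed called with each library left out. Casp4 was at 33.3 and 28.0 CPM in Con and at 22.5 and 16.8 CPM in Fat, with Fat replicate 2 the lowest. The log2 scale change of -0.65 (limma standard error 0.14, adjusted p = 0.0324) was not called without Con replicate 1 (-0.53, limma adjusted p = 0.0872) or without Fat replicate 2 (-0.44, limma adjusted p = 0.0734). The TPM ratio of Casp1 over Casp4 was 4.95 and 5.83 in Con and 5.67 and 6.56 in Fat, so the groups overlapped. Gsdmd, the gene of the pore former gasdermin D, was at 129 and 118 CPM in Con and at 106 and 97.4 CPM in Fat. The Fat values were below the Con values, with a log2 fold change of -0.27 (standard error 0.07, 95% interval from -0.43 to -0.11), just outside the threshold (limma adjusted p = 0.0507). It was inside it with edgeR's quasi-likelihood test on the reads (adjusted p = 0.0493), with DESeq2 (adjusted p = 0.0268), and with limma after scaling by median ratios (adjusted p = 0.046), without Con replicate 2 (adjusted p = 0.0241) and without Fat replicate 1 (adjusted p = 0.0425). It was outside it without Con replicate 1 (limma adjusted p = 0.17), without Fat replicate 2 (0.242), with TPM values (0.12), without the trend (0.189), without the filter (0.0638), with a mean of 5 CPM as the filter (0.0571) and with a pseudocount of 1 (0.0501).

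RefSeq promoter windows were matched for 9 of the 10 genes, 13 windows in all. They were searched on both strands for the interferon-stimulated response element core (TTTC and again TTTC, with 2 bases of any kind between them), the gamma-activated site (TTCNNNGAA), the kB site and TATAAA. The kB letters were in windows of Casp4 and Nlrp3, that is of 2 genes, and in 7.25% of all windows. TATAAA was in windows of 3 genes, on the reverse strand for Il18. It was in no window of Il1rn, called higher, or of Il18bp, Nlrp3, Pycard, Casp1 and Casp4, called lower. The response element core and the gamma-activated site were in the windows of 0 of the 9 genes, and in 2.98% and 7.02% of all windows. The 250 bases before the first RefSeq start of Casp4 (GRCm38.p6, plus strand, chr9:5308599-5308848) are shown because they hold several of these matches, with the kB letters in capitals.
Casp4: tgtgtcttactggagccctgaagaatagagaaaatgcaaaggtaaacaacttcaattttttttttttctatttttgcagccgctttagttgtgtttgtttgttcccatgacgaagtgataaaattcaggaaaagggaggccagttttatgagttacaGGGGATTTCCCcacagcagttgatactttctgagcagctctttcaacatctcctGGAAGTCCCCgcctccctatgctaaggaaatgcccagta
The first capital stretch holds overlapping matches between -93 and -83, and the second lies at -39 to -30. A match is a description of letters only.

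On the TPM scale, the order of the genes differed between the media. In Con the levels ran from Casp1 (251 and 245 TPM) through Gsdmd, Pycard and Il1rn, whose ranges overlapped between neighbours (141 to 158 TPM over the 3 genes), then Il18bp, Casp4, Nlrp3, Il1b, Il18 and Il1a (3.33 and 2.98 TPM). Nlrp3 and Il1b also overlapped in Con. In Fat, Il1rn came first (413.5 and 319 TPM), above Casp1 (197 and 171 TPM), and no neighbours overlapped. Il18 (19.1 and 17.1 TPM) there stood above Il1b (11.6 and 8.83 TPM), in contrast to Con, where Il1b (33.0 and 22.03 TPM) stood above Il18 (20.6 and 18.0 TPM).

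The wider pathway was followed in a list of 68 further genes with values, of which 62 passed the filter. Of these 62 genes, 9 were called, 1 higher and 8 lower, with a median log2 fold change of -0.04. That is 14.5% of them, against the 9.0% of all genes tested given above. Without Con replicate 1 there were 5 calls and without Fat replicate 2 there were 4. Of the IL-1 family ligands outside the 10 genes, Il33 had 0 and 4 reads in Con and 0 and 4 reads in Fat, and the 1 gene tested, Il1f9 (IL-36 gamma), was not called.

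Of the receptor genes 0 of 8 were called with limma, and of the signalling genes 0 of 11, numbers near the 9.0% of all genes tested. At an unadjusted p under 0.05 there were 2 receptor genes and 3 signalling genes, and edgeR and DESeq2 called 0 of either. Over all 12470 genes tested, 3008 had an unadjusted p under 0.05. Il1rl2, the receptor for IL-36, was below both Con libraries in both Fat libraries, at 7.08 and 8.21 CPM in Con and at 6.19 and 4.95 CPM in Fat (log2 fold change -0.45, limma adjusted p = 0.104). With each library left out in turn the log2 fold change of Il1rl2 lay between -0.61 and -0.30, and whether it was called depended on the library left out. The IL-1 receptor Il1r1 was at 2.24 and 2.16 CPM in Con and at 2.44 and 1.80 CPM in Fat (log2 fold change -0.06, 95% interval from -0.52 to 0.40). Il1rap, the shared accessory chain, was at 20.3 and 20.8 CPM in Con and at 21.1 and 21.98 CPM in Fat (log2 fold change 0.07, 95% interval from -0.10 to 0.24). The decoy receptor Il1r2 was at 1.09 and 1.07 CPM in Con and at 0.616 and 0.732 CPM in Fat, below Con in each Fat library without being called (log2 fold change -0.61, limma adjusted p = 0.18). Myd88, the adaptor that IL-1 and most Toll-like receptors share, was at 66.6 and 65.7 CPM in Con and at 59.7 and 59.8 CPM in Fat (log2 fold change -0.15, limma adjusted p = 0.146).

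Of 10 inflammasome sensors other than Nlrp3, limma called 0 (2 at an unadjusted p under 0.05), and so did edgeR and DESeq2, which is again near the share of all genes. Aim2, the sensor of cytosolic DNA, was at 43.7 and 42.1 CPM in Con and at 42.7 and 35.9 CPM in Fat (log2 fold change -0.13, 95% interval from -0.34 to 0.08). Nlrc4, which acts with the NAIP receptors for bacterial flagellin, was at 27.1 and 23.5 CPM in Con and at 26.3 and 29.0 CPM in Fat (log2 fold change 0.13, 95% interval from -0.08 to 0.35). The groups overlapped for both sensors. They did not overlap for Mefv, the gene of pyrin, at 4.36 and 3.04 CPM in Con and at 2.30 and 2.66 CPM in Fat (log2 fold change -0.54, limma adjusted p = 0.154). With each library left out in turn the log2 fold change of Mefv lay between -0.79 and -0.29, and whether it was called depended on the library left out. For Nlrp10 the Fat values were above, at 2.71 and 2.85 CPM in Con and at 3.72 and 3.76 CPM in Fat (log2 fold change 0.41, limma adjusted p = 0.122). That Nlrp3 changed differently from them was not tested.

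Of 11 genes that license or control NLRP3, 1 was called higher and 2 lower. That is 27.3% of them, against 9.0% of all genes tested. Gbp5, an interferon-induced GTPase linked to NLRP3 assembly, fell from 113 and 92.7 CPM in Con to 31.7 and 16.6 CPM in Fat (log2 fold change -2.15 with standard error 0.26, limma adjusted p = 0.00514). Txnip, a thioredoxin-binding protein also reported to bind NLRP3, was higher, at 618 and 643 CPM in Con and at 848 and 870.2 CPM in Fat (log2 fold change 0.45 with standard error 0.06, limma adjusted p = 0.00763). P2rx4, an ATP-gated channel, was at 343 and 335 CPM in Con and at 290 and 289 CPM in Fat (log2 fold change -0.23, limma adjusted p = 0.0391). The group thus held changes in both directions, and its median log2 fold change was 0.0037.

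Of 11 genes for death proteases, pores and their inhibitors, 4 were called lower and 0 higher with limma. These are 36.4% of them, against 5.0% of all genes tested that were called lower. With edgeR 4 of the 11 were called, and with DESeq2 3. Mlkl, the effector of necroptosis, was at 56.0 and 53.6 CPM in Con and at 42.2 and 32.9 CPM in Fat (log2 fold change -0.56, limma adjusted p = 0.0243). Casp12, a relative of Casp1 and Casp4, was at 4.84 and 4.93 CPM in Con and at 3.48 and 3.12 CPM in Fat (log2 fold change -0.55, limma adjusted p = 0.046). It was called with edgeR (adjusted p = 0.0456) but not with DESeq2 (adjusted p = 0.136) or with TPM values (limma adjusted p = 0.0619). In the priming group, 2 of 10 genes were called with limma, both lower, against 5.0% of all genes tested that were called lower. The numbers were 2 with edgeR and 3 with DESeq2. Tlr2, the receptor for bacterial lipoproteins, fell from 181 and 137 CPM to 88.2 and 76.1 CPM (log2 fold change -0.94, limma adjusted p = 0.0076), and Ticam2, an adaptor of TLR4, had a log2 fold change of -0.41 (limma adjusted p = 0.0128).

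Txnip, Gbp5 and Tlr2 stayed called with each library left out. Without Fat replicate 2 the limma adjusted p was 0.179 for P2rx4, 0.195 for Casp12 and 0.0519 for Ticam2. Without Con replicate 1 it was 0.112 for P2rx4, 0.139 for Casp12 and 0.0512 for Mlkl. Without Con replicate 2 it was 0.0503 for P2rx4 and 0.132 for Casp12, and without Fat replicate 1 it was 0.12 and 0.0619 for the same genes.

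**Figure D4:**
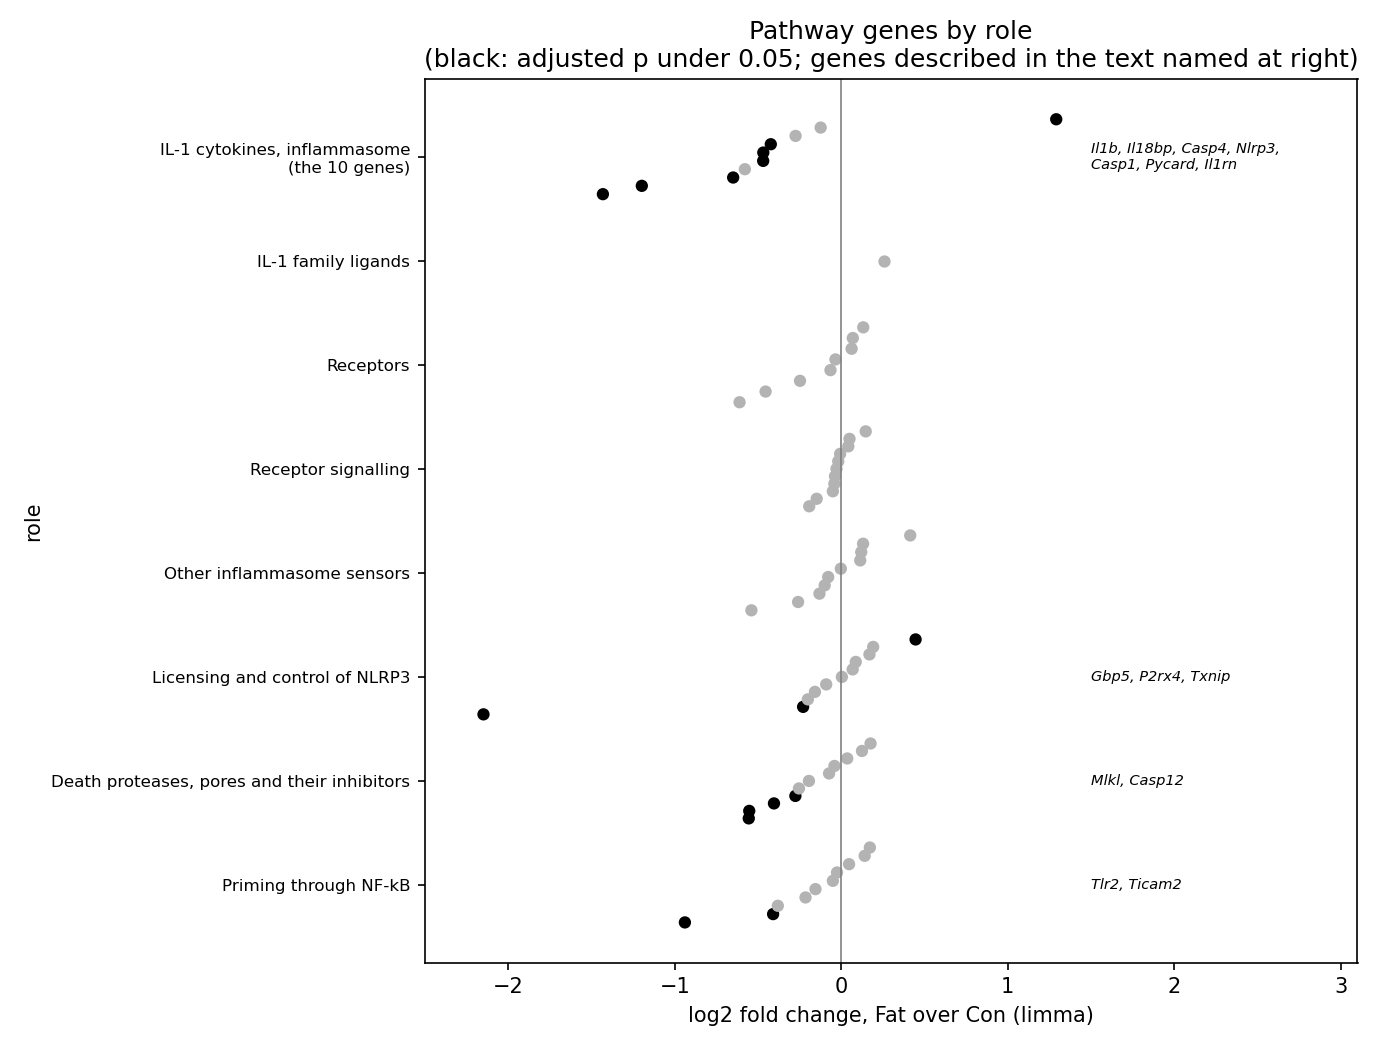
Log2 fold change of Fat over Con (x axis) for each tested gene of a role (rows, with points spread vertically in order of change); black points were called at an adjusted p under 0.05 and those described in the text are named at the right. The roles Receptors, Receptor signalling and Other inflammasome sensors hold 0 called genes, and Gbp5 lies farthest from 0, at -2.15.

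The genes whose pattern over the 4 libraries was most like that of Il1b were sought among 9751 tested genes that averaged 5 CPM or more. In order, they were C3 (complement component C3), Smpdl3b (a lipid phosphodiesterase), Marco (a scavenger receptor), Phf11d and Rsad2 (the antiviral protein viperin). Their centred log2 values differed from those of Il1b by a root mean square of 0.0785 to 0.115. C3 was at 156 and 111 CPM in Con and at 62.0 and 47.1 CPM in Fat, so it too was higher in Con replicate 1 than in Con replicate 2. Phf11d belongs to a family of similar genes, and its reads may be shared among them. With 4 libraries this likeness is a description only.

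Other cells can carry these transcripts, neutrophils above all for Il1b. Of 10 neutrophil markers 9 were tested with limma (Ly6g was not analysed here), and 0 were called at an adjusted p under 0.05, with summed levels of 370.1 to 421 CPM in Con and 362 to 363 CPM in Fat, mostly of S100a8, S100a9 and Ngp. At an unadjusted p under 0.05 there were 3 of the 9, and edgeR and DESeq2 called 0. Among all 12470 genes tested, limma called 9.0%, and 3008 had an unadjusted p under 0.05. For 5 of the 9 both Fat libraries were below both Con libraries, as for 26.2% of all genes tested, and for 1 both were above. Among the 5 were Mpo (log2 fold change -1.03, limma adjusted p = 0.0784), Camp (-0.42, 0.0888) and Ngp (-0.26, 0.0736). With each library left out in turn, the log2 fold change of Mpo lay between -1.40 and -0.66. That of Camp lay between -0.58 and -0.27, and that of Ngp between -0.34 and -0.18. Whether each was called depended on which library was left out. Mpo rested on 28 to 78 reads a library. Of the adipocyte markers, Adipoq had no reads in Con (0 and 0, where a count of 0 allows up to 3 reads a library) and 28 and 14 in the Fat libraries, Lep likewise went from 0 and 0 reads to 30 and 18 reads, and Cidec was called higher. The 10 adipocyte markers summed to 29.3 to 30.3 CPM in Con and 30.2 to 31.6 CPM in Fat, mostly from Lipe and Slc36a2. Of the 10, 3 were tested and Cidec alone was called (33.3%), against 9.0% of all genes tested. Lipe was below both Con libraries in both Fat libraries without being called (log2 fold change -0.20, limma adjusted p = 0.211). For Slc36a2 the groups overlapped (log2 fold change 0.08). Dendritic cell markers summed to 2.48 to 2.53 CPM in Con and 2.01 to 2.07 CPM in Fat, and 3 of the 6 had no more than 3 reads in any library. Fibroblast or stromal markers summed to 300 to 317 CPM in Con and 258 to 345 CPM in Fat, with Dcn called lower by limma but not by DESeq2. Lymphocyte markers summed to 18.7 to 19.9 CPM in Con and 15.3 to 16.7 CPM in Fat, and endothelial markers to 4.58 to 6.28 CPM in Con and 6.89 to 7.56 CPM in Fat. The part of these cells in the results above was not tested.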

How the data were processed

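Mouse macrophage RNA was sequenced by the authors as single reads of 75 bases from stranded polyA libraries. The submitters' processing notes name the GRCm39 build, and the aligner, counter and strand setting are not given in the sources used here. The authors deposited CPM values (reads over the library's scaled size) and TPM values, for which gene length also counts. In each library the CPM steps gave whole reads for 100% of values (tolerance 0.01 read), so the reads could be recovered.

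Fat was compared with Con on the scale log2(CPM + 0.1) by limma 3.58.1 (R 4.3.3), two-sided, with a mean-variance trend, for the 12470 of 17013 genes that reached 0.5 CPM in 2 or more libraries. p-values were adjusted over all of these genes by the Benjamini-Hochberg method, and genes under 0.05 were called. The pseudocount understates changes of low genes. Alternatives were a pseudocount of 1, the TPM values, median ratio scaling, no filter or a filter on a mean of 5 CPM, no trend, a block for the replicate number, each library left out, and edgeR 4.0.16 (quasi-likelihood) and DESeq2 1.42.0 on the recovered reads. The fits were tested on simulated counts. Ratios of 2 genes were taken from TPM, and tested with an exact two-sided permutation test over the 4 libraries.

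Named are the 10 genes, every called gene of the pathway list except 2 that are not reported here, 7 further genes of it named whatever their result (Il1r1, Il1r2, Il1rap, Il33, Aim2, Nlrc4 and Myd88), and the 5 genes most like Il1b. Il1f9, Il1rl2, Mefv and Nlrp10 were named after their values were seen, as were individual cell type markers. The members and lists were chosen with earlier results of these data known. Gene synonyms and promoter sequences came from RefSeq tables of GRCm38.p6, and the kB and TATA motifs were added after the values were seen. Every stretch of 75 bases of the 10 genes' GENCODE vM21 transcripts was looked up in all other genes' transcripts, and none was shared. The stretches were not sought as reverse complements, so this search could not find the opposite-strand overlaps given above. Tables and figures used Python 3.11.15, pandas 2.3.3, scipy 1.17.1 and matplotlib 3.10.9.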

Additional observations from a re-analysis of the deposited data

How the results depend on the processing

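Among the 10 genes, every log2 fold change kept its direction under all alternatives run. The number of these genes called was 7, between 5 and 9 under every alternative except that without the mean-variance trend, where it was 0 (9 at an unadjusted limma p under 0.05, 8 with edgeR and 8 with DESeq2). With each library left out it lay between 5 and 8, and the group left with 1 library was then assumed to vary like the other. With the TPM values Nlrp3 and Casp4 were not called (limma adjusted p = 0.0874 and 0.0728). Without the trend the calls over all genes fell from 1122 to 31, and those of the pathway list from 9 to 0 (17 of 62 at an unadjusted limma p under 0.05, 9 with edgeR and 9 with DESeq2). In that fit 2639 of all 12470 genes had an unadjusted p under 0.05. With the TPM values 5 pathway genes were called. With each library left out, between 529 and 1131 of all genes and between 4 and 12 pathway genes were called. The log2 ratio of Nlrp3 over Pycard was -0.05, between -0.26 and 0.17 with each library left out, with its sign turned without Con replicate 1, and the cause was not tested. Deviations from the group means correlated at 0.20 between libraries of the same number, and the labels give them a shared number only. With the replicate block, 2520 of all genes, 9 of the 10 genes and 20 pathway genes were called, Il1a (limma adjusted p = 0.0285) and Gsdmd (limma adjusted p = 0.000389) among them. Il1a rested on 72 to 103 reads a library.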
